A study of Mus musculus with 12 samples.

Results

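Slc9a2, Penk, Pfn2, Cpxm2 and Col7a1 were 5 genes of newborn mouse skull whose counts differed in the same direction between Crouzon mutant and wild type samples on both of the inbred strains studied. They were 5 of the 23358 genes in the deposited count table, chosen by the mutant minus wild type difference, which passed an adjusted p under 0.05 in the same direction in both strains, and all 5 passed the filter on low counts that 16190 genes passed. Because that contrast selected them, it is given for these genes as a description with its standard error and without a test. Igfbp2 and Sfrp2, which met the same criterion, are not described here beyond their values at the threshold.

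The tissue, taken at postnatal day 3, was frontal bone with the nasal bone and the sutures that border it (coronal and frontonasal), and RNA was sequenced from 12 samples. The groups were C57BL/6 wild type (replicates 1 to 3), C57BL/6 FGFR2C342Y/+ (replicates 4 to 6), BALB/c wild type (replicates 13 to 15) and BALB/c FGFR2C342Y/+ (replicates 16 to 18). The mutants carry the C342Y change on 1 copy of Fgfr2, the wild types carry none, and the labels name no treatment in any group. No source used here says whether each sample came from 1 animal or a pool, so p-values measure only the spread between these samples. Every C57BL/6 sample carried 1 run identifier and every BALB/c sample another, so strain and sequencing run cannot be told apart.

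FGFR2 is a cell surface tyrosine kinase receptor for fibroblast growth factors. In Crouzon syndrome, changes such as this one leave an unpaired cysteine outside the cell, receptors join without ligand, and skull sutures can close early. The bones of the skull roof form directly from mesenchyme, and the sutures between them hold the dividing cells that add new bone. The 5 genes have no known shared pathway. Slc9a2 encodes a plasma membrane exchanger that lets sodium in and protons out. Penk encodes proenkephalin, the precursor that is cut into the enkephalin opioid peptides and is made by some embryonic mesenchyme as well as by neurons. Pfn2 encodes a profilin, which binds actin monomers and hands them to growing filaments. Cpxm2 encodes a secreted relative of the metallocarboxypeptidases that lacks residues needed for catalysis, and Col7a1 encodes the chain of type VII collagen, the anchoring fibril under basement membranes.

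Per the authors' coordinates on mm10, the genes lie on 5 chromosomes. Slc9a2 (ENSMUSG00000026062) spans chr1:40681712-40768885 on the plus strand and Penk (ENSMUSG00000045573) chr4:4133536-4138445 on the minus strand. Pfn2 (ENSMUSG00000027805) spans chr3:57841895-57847757 on the minus strand, Cpxm2 (ENSMUSG00000030862) chr7:132042810-132154741 on the minus strand and Col7a1 (ENSMUSG00000025650) chr9:108953745-108984875 on the plus strand. All 5 are protein coding. In the GENCODE transcripts of the same assembly Slc9a2 has 12 merged exons, Penk 3, Pfn2 5, Cpxm2 16 and Col7a1 116. Other annotated genes overlap some of their exons. The opposite-strand gene A830012C17Rik covers 342 exon bases of Penk, and Gm15677 covers 454 exon bases of Cpxm2. Of the 50-base words of each gene's transcripts, 8.60% of those of Penk and 6.63% of those of Cpxm2 also occur in these neighbours, against 0% for the other 3 genes. Neither neighbour is a row of the count table, and whether counting used strand is not given in the sources used here, so reads in those stretches cannot be assigned to 1 of the overlapping genes. The GENCODE gene model of Fgfr2, chr7:130162451-133123350 on the same strand, runs across the whole of Cpxm2.

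RefSeq promoter windows on GRCm38.p6 were at hand for 3 of the 5 genes, Pfn2, Cpxm2 and Col7a1. The 250 bases before the RefSeq start are shown on the gene's strand, as the sequence next to the start of genes lower in the mutants of both strains. The GENCODE model of Pfn2 begins farther upstream and holds the whole of its window, while those of Cpxm2 and Col7a1 begin after their windows. Capitals mark matches, on either strand, to the CRE-like motifs TGACGTC and TGCGTCA, the AP-1 motif TGANTCA, the GC box GGGCGG and the TATA motif TATAAA.
Pfn2 chr3:57847758-57848007 (minus strand): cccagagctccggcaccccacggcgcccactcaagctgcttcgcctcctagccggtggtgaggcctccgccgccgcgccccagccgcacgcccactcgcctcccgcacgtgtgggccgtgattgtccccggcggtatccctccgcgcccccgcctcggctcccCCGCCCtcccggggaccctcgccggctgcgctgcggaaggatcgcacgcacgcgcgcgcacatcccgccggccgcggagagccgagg
Cpxm2 chr7:132154742-132154991 (minus strand): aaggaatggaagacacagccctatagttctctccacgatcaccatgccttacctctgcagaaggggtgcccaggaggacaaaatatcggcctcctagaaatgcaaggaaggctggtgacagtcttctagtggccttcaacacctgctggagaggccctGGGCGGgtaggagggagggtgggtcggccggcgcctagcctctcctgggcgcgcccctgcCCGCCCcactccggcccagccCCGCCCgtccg
Col7a1 chr9:108953336-108953585 (plus strand): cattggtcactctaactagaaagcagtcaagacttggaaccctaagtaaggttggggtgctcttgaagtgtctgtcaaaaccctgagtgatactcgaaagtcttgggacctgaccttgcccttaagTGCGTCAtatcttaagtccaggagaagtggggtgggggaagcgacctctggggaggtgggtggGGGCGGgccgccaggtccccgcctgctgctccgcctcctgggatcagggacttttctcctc
The GC box, which no motif searched here overlaps in these windows, was the 1 motif present in all 3. It occurred once before Pfn2 (87 bases upstream, counted to the match's first base), 3 times before Cpxm2 (92, 32 and 11 bases upstream) and once before Col7a1 (61 bases upstream). Of 32851 promoter windows of the same length, 32.7% hold it. The CRE-like TGCGTCA occurred once, 124 bases before Col7a1, and is held by 1.75% of windows. The E-box CANNTG occurred once before Pfn2 and once before Cpxm2 and not before Col7a1, and 66.2% of windows hold it. No window held TGACGTC (2.78% of all windows), TGANTCA (6.75%), TATAAA (12.4%), the RUNX motif TGTGGT (14.05%) or the ETS motif CCGGAA (12.03%). A match is a run of letters and was not tested as a binding site. GC content was 78% before Pfn2, 64% before Cpxm2 and 56.4% before Col7a1, against a median of 52.4% over all windows.

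Total counts ran from 27181658 to 46521546 per sample. The 8 osteoblast markers summed to 112662 to 260699 CPM (counts scaled to a library size adjusted by TMM composition factors) across all samples, and moved with genotype in C57BL/6 as given with the other marker lists. The C57BL/6 mutant replicate 4 lay nearer to the wild type samples than replicates 5 and 6 did in the marker sums for cartilage, basal epithelium and neurons. Fgfr2, the mutated gene, ran from 212 to 283 CPM in the C57BL/6 wild types, from 337 to 375 CPM in the C57BL/6 mutants, from 269 to 290 CPM in the BALB/c wild types and from 271 to 318 CPM in the BALB/c mutants. Both alleles are counted together, so this level does not check the genotype labels.

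Slc9a2 was the 1 gene of the 5 with more RNA in the mutants. In C57BL/6 the wild type samples held 11.02, 14.5 and 15.1 CPM and the mutants 23.1, 25.9 and 27.05 CPM. In BALB/c the wild type samples held 12.2, 14.8 and 11.5 CPM and the mutants 22.4, 22.3 and 27.8 CPM. Every mutant sample was above every wild type sample of both strains, a separation that the choice of the gene favours within each strain. The mutant minus wild type difference was 0.91 on the log2 scale in C57BL/6 (SE 0.137), a 1.88-fold higher level. It was 0.91 in BALB/c (SE 0.138), and the BALB/c difference minus the C57BL/6 difference was 0.01 (SE 0.193).

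Penk had the largest strain difference averaged over genotypes of the 5 genes as well as the largest genotype difference in C57BL/6. The C57BL/6 wild type samples held 28.6, 32.5 and 34.4 CPM and the mutants 14.3, 12.5 and 12.7 CPM. In BALB/c the wild type samples were close together at 61.8, 61.0 and 60.5 CPM, and the mutants held 38.0, 37.2 and 28.3 CPM. Within each strain the mutants lay below the wild types with no overlap, while the BALB/c mutants overlapped the C57BL/6 wild types. The mutant minus wild type difference was -1.27 on the log2 scale in C57BL/6 (SE 0.109), a 2.41-fold lower level. In BALB/c it was -0.82 (SE 0.105), a 1.77-fold lower level. The difference between these log2 values was 0.45 (SE 0.150), the widest gap between the strains among the 5 genes.

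Pfn2 showed the smallest genotype difference and the smallest spread among replicates, which the choice by adjusted p ties together. Its C57BL/6 wild type samples held 41.2, 36.9 and 36.2 CPM and its C57BL/6 mutants 26.0, 29.7 and 27.1 CPM. Its BALB/c wild type samples held 56.6, 52.7 and 53.9 CPM and its BALB/c mutants 40.0, 42.5 and 36.3 CPM. As for Penk, mutants were lower than wild types without overlap in each strain, and the BALB/c mutants reached the C57BL/6 wild type range. The log2 differences were -0.47 in C57BL/6 (SE 0.0762) and -0.46 in BALB/c (SE 0.0755), 1.38-fold and 1.37-fold lower levels. The gap between the strains' differences was 0.01 (SE 0.107). The standard deviation of log2 CPM within groups, pooled over the 4 groups, was 0.0945 for Pfn2 and 0.146 to 0.190 for the other 4 genes.

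Cpxm2 was the gene whose 4 groups were all apart. The C57BL/6 mutants held 23.5, 21.7 and 25.3 CPM and the C57BL/6 wild types 31.3, 32.3 and 36.4 CPM. The BALB/c mutants held 41.0, 51.1 and 42.9 CPM and the BALB/c wild types 88.1, 63.8 and 77.2 CPM. No group's range overlapped another's, and the order ran from C57BL/6 mutant through C57BL/6 wild type and BALB/c mutant to BALB/c wild type. The log2 difference was -0.50 in C57BL/6 (SE 0.120) and -0.76 in BALB/c (SE 0.118), which correspond to 1.42-fold and 1.70-fold lower levels in mutants. The BALB/c difference minus the C57BL/6 difference was -0.26 (SE 0.168).

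By the authors' coordinates, which end Fgfr2 short of Cpxm2, Cpxm2 lies 1.78 Mb from Fgfr2 on chromosome 7, a fact looked at after its values were seen. Where an allele was bred in from another strain, DNA beside it comes along, and such DNA and the mutation cannot be told apart for a gene this near. Within 5 Mb of Fgfr2 on each side, 142 other genes were tested. Of these, 39 (27.5%) were called in C57BL/6 and 1 (0.704%) in BALB/c by edgeR, against 23.9% and 0.136% of all genes. An unadjusted p under 0.05 was found for 41.5% of these neighbours in C57BL/6 and 20.4% in BALB/c, against 39.2% and 11.7% of all genes. The median absolute genotype difference of these neighbours was 0.18 in C57BL/6 and 0.12 in BALB/c on the log2 scale, against 0.21 and 0.11 over all genes. The C57BL/6 difference of Cpxm2 was exceeded in size by 25 of the 142 neighbours, and its BALB/c difference by 6.

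Col7a1 was lower in mutants like the 3 preceding genes but lower in BALB/c than in C57BL/6. The C57BL/6 wild type samples held 41.7, 35.3 and 33.0 CPM and the mutants 23.3, 21.6 and 19.2 CPM. In BALB/c the wild type samples held 27.1, 20.6 and 24.8 CPM and the mutants 10.7, 13.2 and 11.3 CPM. Genotype groups did not overlap within a strain, and the BALB/c wild types overlapped the C57BL/6 mutants. The log2 difference was -0.78 in C57BL/6 (SE 0.122), a 1.71-fold lower level, and -1.04 in BALB/c (SE 0.126), a 2.06-fold lower level. The gap between the 2 values was -0.26 (SE 0.174). In the plot of levels by sample, the group means of Penk, Pfn2 and Cpxm2 run in 1 order, from C57BL/6 mutant through C57BL/6 wild type and BALB/c mutant to BALB/c wild type. Slc9a2 and Col7a1 each have another order.

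**Figure D1:**
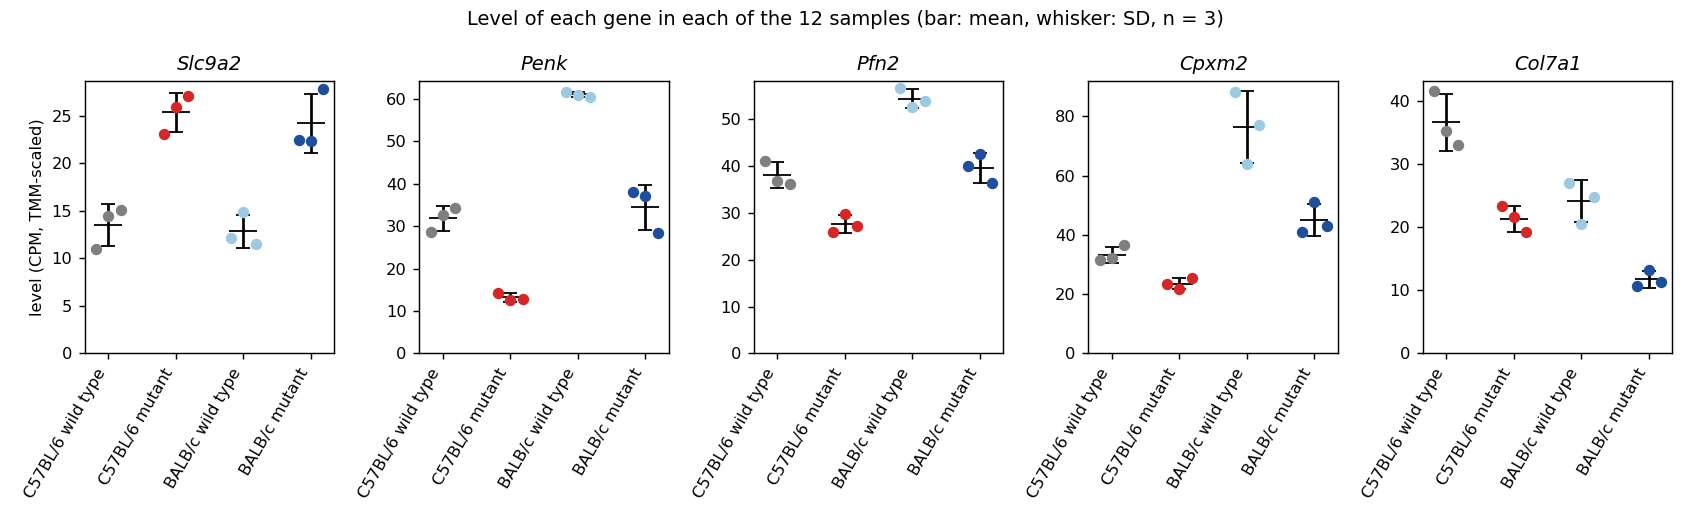
Level of each of the 5 genes in every sample (CPM, linear axis from 0), by group, with points for samples and a bar for the group mean with its SD (n = 3). Slc9a2 sits at 22.3 to 27.8 CPM in mutants and 11.02 to 15.1 CPM in wild types of both strains, and the other 4 genes are lower in mutants at a level that depends on the strain.

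The ranges of all 5 genes were apart between genotypes in both strains. Among all 16190 genes tested, ranges were apart in both strains with mutants higher for 1.99% and with mutants lower for 1.77%. At an adjusted p under 0.05 (edgeR quasi-likelihood test, Benjamini-Hochberg over all genes), 23.9% of genes were called between genotypes in C57BL/6 and 0.136% in BALB/c, which was 22 genes. Both contrasts called 8 genes in the same direction (0.0494% of those tested), of which 2 were higher (0.0124%) and 6 lower (0.0371%) in mutants, and 7 genes (0.0432%) in opposite directions. The 5 genes are 5 of those 8 by choice, so nothing is read from their number. Ordered by the larger of the adjusted p-values in the 2 strains, Penk and Col7a1 stood at 0.0260, Slc9a2 and Cpxm2 at 0.0398 and Pfn2 at 0.0487, beside Gm17296 at 0.0460 and Igfbp2 and Sfrp2 at 0.0487. Just outside stood Cdh3 and Gfra1 at 0.0617 and Megf6 at 0.0639. Their log2 differences resembled those of the chosen genes: -1.41 and -0.96 in C57BL/6 and BALB/c for Cdh3, 0.72 and 0.70 for Gfra1, and -0.74 and -0.57 for Megf6.

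Which genes met the threshold in BALB/c rested on single libraries, on the scaling and on a covariate. All 5 were past it in both strains under 8 of 19 other settings, and none was under 4, namely the fits without replicate 3 or 6 of C57BL/6 (wild type and mutant) or replicate 13 or 15 of BALB/c (both wild type). With total counts Slc9a2 and Penk remained past it, and with the Y-linked covariate Penk and Col7a1. In the other 5 settings 1 to 3 genes were past it: 3 without C57BL/6 wild type replicate 2, 2 without C57BL/6 mutant replicate 5, and 1 each without BALB/c mutant replicate 16, 17 or 18. In each of the 4 fits with none, 0 genes of the whole table were called in BALB/c. Over the 19 settings the BALB/c log2 difference ran from 0.80 to 1.04 for Slc9a2, from -0.89 to -0.70 for Penk and from -0.51 to -0.40 for Pfn2. It ran from -0.87 to -0.64 for Cpxm2 and from -1.14 to -0.94 for Col7a1. All 5 genes kept 1 sign in both strains under every one of these settings. The choice of the genes and their separate ranges made a change of sign unlikely in advance, most of all with 1 library left out.

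**Figure D2:**
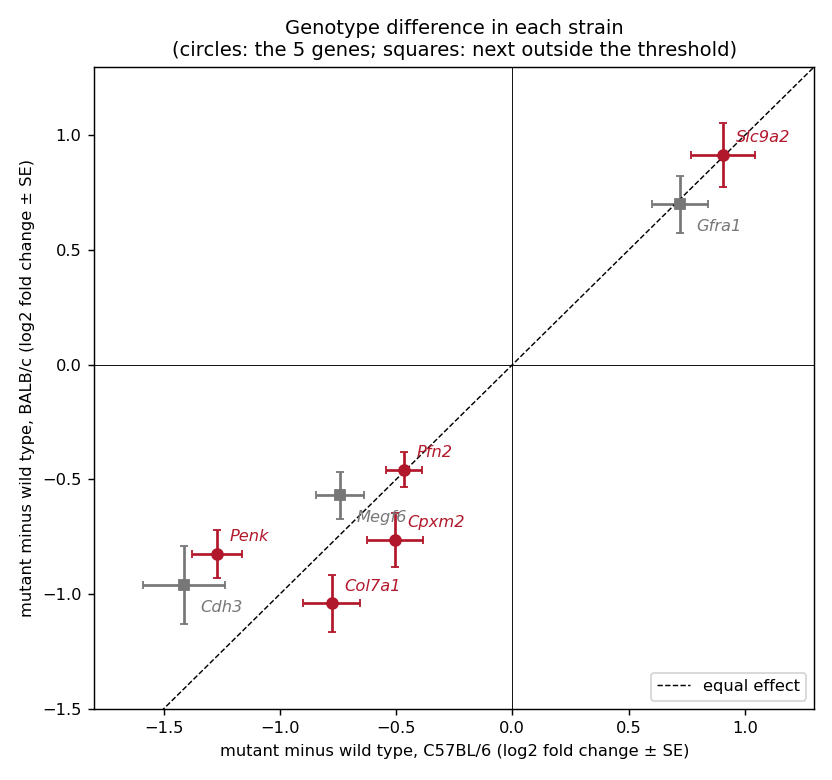
Mutant minus wild type in BALB/c against mutant minus wild type in C57BL/6 (log2 fold change, bars 1 SE), with circles for the 5 genes, squares for the 3 genes just outside the threshold and a dashed line of equal effect. Slc9a2 (0.91 in both) and Pfn2 (-0.47 and -0.46) lie on the line, Penk lies above it, and Cpxm2 and Col7a1 lie below it.

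The strain difference averaged over the genotypes was not used to choose the genes, and it was tested. The test shares each gene's estimate of spread with the tests that chose the genes. That choice favours a small estimate, so the SEs and p-values given here lean low. BALB/c samples had more Penk, Cpxm2 and Pfn2 RNA and less Col7a1 RNA than C57BL/6 samples, and Slc9a2 did not pass the test. Of the 5 genes, 4 were called, where 56.3% of all tested genes were called, so a strain difference was common in the table at large. Penk was 1.16 higher in BALB/c on the log2 scale (SE 0.0757, edgeR adjusted p 3.57e-07), a 2.24-fold higher level. Cpxm2 was 1.07 higher (SE 0.0845, edgeR adjusted p 1.38e-06) and Pfn2 0.52 higher (SE 0.0536, edgeR adjusted p 1.02e-05). For these 3 genes every BALB/c sample was above every C57BL/6 sample of its genotype. Ranges were apart between strains for 57.5% of all genes in wild type and for 50.2% in mutants. Col7a1 differed by -0.73 (SE 0.0873, edgeR adjusted p 2.90e-05), a 1.66-fold lower level in BALB/c, with every BALB/c sample below every C57BL/6 sample of its genotype. Slc9a2 differed by -0.07 (SE 0.0967, edgeR adjusted p 0.548), and its ranges overlapped between strains in each genotype. Larger absolute strain differences than that of Penk were found in 12.3% of genes, than Cpxm2 in 13.6%, than Col7a1 in 19.9%, than Pfn2 in 28.6% and than Slc9a2 in 84.4%. The median absolute value was 0.73 over the 5 genes and 0.27 over all genes.

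Within a genotype the strain comparisons share samples with the contrasts that chose the genes, and their values are given side by side. In wild type samples, where 48.5% of all genes were called, BALB/c minus C57BL/6 was 0.94 for Penk, 1.20 for Cpxm2, 0.51 for Pfn2, -0.60 for Col7a1 and -0.08 for Slc9a2. In mutants, where 36.9% were called, the values were 1.39 for Penk, 0.94 for Cpxm2, 0.52 for Pfn2, -0.87 for Col7a1 and -0.07 for Slc9a2. No test is read from these values.

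**Figure D3:**
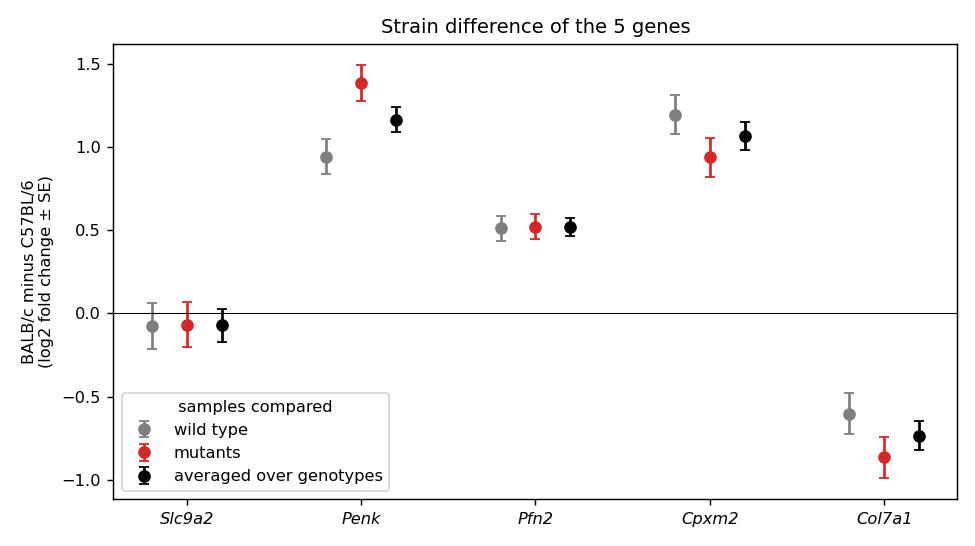
BALB/c minus C57BL/6 (log2 fold change, bars 1 SE) for each gene in wild type samples, in mutants and averaged over both. Penk, Cpxm2 and Pfn2 lie above 0, Col7a1 lies below 0 and Slc9a2 lies within 1 SE of 0, in all 3 comparisons.

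Levels can be set side by side between genes only per transcript length, for which the authors' RPKM values serve. They rest on the length in the authors' file, which is shorter than the GENCODE exon length for all 5 genes, most of all for Slc9a2 (3493 against 6984 bases) and Pfn2 (2020 against 3541). In C57BL/6 wild type samples Penk was the most abundant at 18.7 RPKM ± 0.836 (SD, n = 3), with Pfn2 next at 15.8 RPKM ± 1.97 (SD, n = 3), of which replicate 1 reached into the range of Penk at 18.04 RPKM. Cpxm2 followed at 7.92 RPKM ± 0.424 (SD, n = 3). Col7a1 at 3.34 RPKM ± 0.590 (SD, n = 3) and Slc9a2 at 3.21 RPKM ± 0.372 (SD, n = 3) overlapped. In BALB/c wild type samples the means were 37.4 for Penk, 23.3 for Pfn2, 18.8 for Cpxm2, 3.18 for Slc9a2 and 2.27 RPKM for Col7a1, with no overlap between neighbours in this order on the authors' lengths. In C57BL/6 mutants Pfn2, at 10.3 RPKM, stood above Penk, at 7.03 RPKM, and Slc9a2, at 5.45 RPKM, overlapped Cpxm2, at 5.04 RPKM. In BALB/c mutants the means were 21.6 for Penk, 17.3 for Pfn2, 11.3 for Cpxm2, 6.12 for Slc9a2 and 1.12 RPKM for Col7a1, and only Penk and Pfn2 overlapped. Col7a1 was the lowest of the 5 genes in every mutant sample of both strains. With GENCODE exon lengths, an alternative chosen after seeing the data, several of these orders turn. In BALB/c wild types Slc9a2 would stand at 1.59 below Col7a1 at 2.03, and Pfn2 at 13.3 below Cpxm2 at 14.3 RPKM. In C57BL/6 mutants Pfn2 would stand at 5.85 below Penk at 6.07, and Slc9a2 at 2.72 below Cpxm2 at 3.82 RPKM. Penk is the highest gene and Col7a1 the lowest in the means of both mutant groups on these lengths.

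The authors' deposited table of comparisons gives log2 fold changes for the same genes. For mutant over wild type in C57BL/6 the authors' deposited table holds 0.86 for Slc9a2, -1.17 for Penk, -0.45 for Pfn2, -0.43 for Cpxm2 and -1.14 for Col7a1. For BALB/c the authors' deposited table holds 0.88, -0.75, -0.44, -0.65 and -0.96 in the same order. The q-values of Cpxm2 in the authors' deposited table were 0.133 in C57BL/6 and 0.0976 in BALB/c, both above 0.05, while those of the other 4 genes were 0.00202 or lower. Col7a1 stood apart between the sources: the authors' deposited table gives C57BL/6 over BALB/c as 0.40 in wild type (q 0.0861) and 0.22 in mutants (q 0.426), where the counts gave C57BL/6 higher by sizes of 0.60 and 0.87. Its genotype values also change order: the authors' deposited table has the larger size in C57BL/6 (-1.14 against -0.96), and the counts have it in BALB/c (-0.78 in C57BL/6 against -1.04). The cause was not tested.

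For each gene, the 3 others with the most similar pattern were found by the mean absolute difference between log2 CPM profiles, each centred on its own mean, over the 12 samples. The search covered 12762 genes other than predicted ones with a mean of at least 1 CPM. By raw distance, which is smaller for a gene that varies little, Pfn2 had the closest companions. These were Emilin3, an extracellular matrix glycoprotein gene, at 0.0772, Ephb3, an ephrin receptor gene, at 0.0838 and Fbln5, an elastic fibre gene, at 0.0980. The median over the search was 0.335. Penk was nearest to Cdh3, which encodes P-cadherin, at 0.134, then to C1qtnf3 at 0.186 and the Wnt ligand gene Wnt11 at 0.202, against a median of 0.666. Cpxm2 was nearest to H2-DMa at 0.142, the latent TGF-beta binding protein gene Ltbp2 at 0.149 and the collagen gene Col8a1 at 0.172. Slc9a2 was nearest to the transcription factor gene Tbx2 at 0.158, then Igsf1 at 0.193 and Cd5 at 0.199. Col7a1 was nearest to Thpo at 0.195, Lin7a at 0.207 and Npas3 at 0.213, of which Thpo averaged 1.32 CPM. The medians over the search were 0.546 for Cpxm2, 0.466 for Slc9a2 and 0.532 for Col7a1. Among the 5 genes themselves the smallest distances were those of Pfn2 to Cpxm2 at 0.275 and of Penk to Cpxm2 at 0.277, and the largest was that of Slc9a2 to Penk at 0.982.

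The other genes of each member's pathway or family were counted over 5 lists holding 84 genes. Of these 72 were tested, and in C57BL/6 14 were higher and 11 lower in mutants past an adjusted p under 0.05. In BALB/c 0 of 72 passed by edgeR, 5 had an unadjusted p under 0.05 and DESeq2 called 3. Of all 16190 genes 11.3% and 12.6% were called higher and lower in C57BL/6. In BALB/c 0.136% of them were called and 11.7% had an unadjusted p under 0.05. DESeq2 called 318 genes in BALB/c, fitted without the filter on low counts, so that number is not a share of the 16190. The absence of edgeR calls in BALB/c is thus near the rate over the whole table and says nothing particular to these lists. The median log2 difference over the 72 genes was -0.02 in C57BL/6 and -0.03 in BALB/c, against 0.00 over all genes in both strains. As the C57BL/6 mutants also differed from their wild types in markers of several cell types, fewer cells of a type and less RNA per cell cannot be told apart for these bulk samples.

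Among 13 sodium-proton exchangers and regulators tested, 3 rose and 3 fell in C57BL/6 mutants. Slc9b2, an exchanger gene known for its high expression in osteoclasts (Nhedc2 in the table), rose by 0.98 (SE 0.138, edgeR adjusted p 0.000970), from 69.3 to 136 CPM. The 5 osteoclast markers, all called higher, summed to 3384 to 4137 CPM in the C57BL/6 wild types and 7140 to 7952 CPM in the mutants, and their part in this rise was not tested. Chp1, whose product is a cofactor of plasma membrane exchangers (1500003O03Rik in the table), rose by 0.42 (SE 0.0702, edgeR adjusted p 0.00220). The endosomal exchanger gene Slc9a9 fell by 0.47 (SE 0.112, edgeR adjusted p 0.0130). In BALB/c the differences of these 3 genes were 0.11, 0.09 and -0.15, none past the threshold. The Slc9a9 call ended in a fit to the 6 C57BL/6 samples alone (edgeR adjusted p 0.0819). Slc9a4, the gene next in kind to Slc9a2, reached at most 0.344 CPM and was below the filter.

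Of 10 opioid pathway genes tested, 3 rose in C57BL/6 mutants and 0 fell. All 3 encode proteases: Mme (neprilysin, which degrades enkephalins) rose by 0.91 (SE 0.104, edgeR adjusted p 0.000352), Cpe, which trims peptide precursors, by 0.40 (SE 0.0879, edgeR adjusted p 0.00862) and Ctsl, a lysosomal cathepsin, by 0.37 (SE 0.0753, edgeR adjusted p 0.00593). Their BALB/c values of 0.16, -0.05 and -0.13 did not pass. The Ctsl call ended in a fit to the 6 C57BL/6 samples alone (edgeR adjusted p 0.0540). Of the receptor genes, Ogfr, which encodes the opioid growth factor receptor that binds Met-enkephalin, averaged 56.6 and 54.7 CPM in C57BL/6 wild types and mutants and 77.2 and 71.8 CPM in BALB/c. The classical opioid receptor genes Oprm1, Oprd1 and Oprk1 were far lower. Oprk1 averaged 2.52 CPM in C57BL/6 wild types and 0.346 CPM in mutants. Its C57BL/6 value of -2.82 (SE 1.24, edgeR adjusted p 0.121) did not pass. In BALB/c Oprk1 averaged 0.0250 CPM in wild types and 0 CPM in mutants. Oprm1 reached at most 0.0861 CPM and was below the filter. Oprd1 reached at most 1.40 CPM, with a C57BL/6 value of -2.88 (SE 1.15, edgeR adjusted p 0.0862) that did not pass. It passed without C57BL/6 mutant replicate 4 (-5.04, edgeR adjusted p 0.0197) and with limma-voom (adjusted p 0.0401).

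Of 23 profilin and actin assembly genes tested, 6 rose and 2 fell in C57BL/6 mutants. Dstn, which encodes an actin severing protein, rose by 0.27 (SE 0.0789, edgeR adjusted p 0.0277) and Arpc2, a subunit of the branching complex, by 0.22 (SE 0.0654, edgeR adjusted p 0.0288). The formin gene Diaph1 (Diap1 in the table) fell by 0.26 (SE 0.0607, edgeR adjusted p 0.0115) and Wasf3, which encodes an activator of the branching complex, fell by 0.66 (SE 0.193, edgeR adjusted p 0.0290). Scaling to total counts left 0.07 for Dstn (edgeR adjusted p 0.622) and 0.03 for Arpc2 (edgeR adjusted p 0.687), and a fit to the 6 C57BL/6 samples alone ended the calls of Dstn, Arpc2 and Wasf3. Each of the 4 calls also ended in some fits that left out 1 library. Leaving out 1 C57BL/6 library ended that of Diap1 in 2 fits (without wild type replicate 1, value -0.20, or mutant replicate 6, -0.22). It ended that of Arpc2 in 3 (without wild type replicate 1, 0.19, mutant replicate 5, 0.18, or mutant replicate 6, 0.22). Dstn lost its call in 4 such fits (without wild type replicate 2, 0.21, wild type replicate 3, 0.27, mutant replicate 5, 0.26, or mutant replicate 6, 0.24). Wasf3 lost its call in 4 (without wild type replicate 1, -0.58, wild type replicate 2, -0.67, mutant replicate 4, -0.55, or mutant replicate 6, -0.64). Pfn1, the close relative of Pfn2, did not pass in either strain, with 0.20 in C57BL/6 (SE 0.0742, edgeR adjusted p 0.0702) and -0.06 in BALB/c (SE 0.0741, edgeR adjusted p 0.804). With DESeq2 the C57BL/6 value passed (adjusted p 0.0232).

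Of 6 carboxypeptidase relatives of Cpxm2 tested, 2 rose (Cpe and Cpz) and 1 fell in C57BL/6 mutants. Cpm, a membrane-bound carboxypeptidase gene, fell by 2.50 (SE 0.566, edgeR adjusted p 0.0101), from a mean of 89.0 to 15.7 CPM, and averaged 11.4 CPM in the wild types and 10.01 CPM in the mutants of BALB/c. Cpz, a secreted carboxypeptidase gene, rose by 0.62 (SE 0.164, edgeR adjusted p 0.0189), and without mutant replicate 6 its value of 0.53 no longer passed. A fit to the 6 C57BL/6 samples alone ended the calls of Cpm (edgeR adjusted p 0.0769) and Cpz (edgeR adjusted p 0.0994). The relatives nearest to Cpxm2 had differences that did not pass in the 12-sample edgeR fit. Cpxm1 had values of 0.00 in C57BL/6 and -0.29 in BALB/c (SE 0.0765, edgeR adjusted p 0.172), and Aebp1 had -0.18 and -0.27 (SE 0.107, edgeR adjusted p 0.358 in BALB/c). Other settings gave calls in the direction of Cpxm2: Cpxm1 in BALB/c with DESeq2 (-0.28, adjusted p 0.0212), and Aebp1 in C57BL/6 with total counts (-0.36, edgeR adjusted p 0.00626) and without wild type replicate 1 (-0.29, edgeR adjusted p 0.0198).

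Of 21 basement membrane anchorage genes tested, 1 rose and 5 fell in C57BL/6 mutants. Bmp1, whose protease product trims type VII procollagen, rose by 0.56 (SE 0.0877, edgeR adjusted p 0.00169), with -0.06 in BALB/c. Krt5, a keratin of basal epithelial cells, fell by 5.08 (SE 1.304, edgeR adjusted p 0.0173), Col17a1, a collagen of their attachment plaques, fell by 2.38 (SE 0.676, edgeR adjusted p 0.0261) and the Bmp1 relative Tll1 fell by 0.68 (SE 0.190, edgeR adjusted p 0.0239). Lamb3 had -2.03 (SE 0.710, edgeR adjusted p 0.0563) and did not pass. It passed with DESeq2, limma-voom and total counts, without wild type replicate 3 (-2.38) and without mutant replicate 4 (-3.86). The calls of Krt5 and Col17a1 ended in a fit to the 6 C57BL/6 samples alone, that of Krt5 also with limma-voom and DESeq2, and those of Col17a1 and Tll1 with the Y-linked covariate. The Krt5 call also ended without wild type replicate 2 (-2.91), mutant replicate 5 (-4.52) or mutant replicate 6 (-4.53), and the Col17a1 call without wild type replicate 2 (-1.39), mutant replicate 5 (-1.97) or mutant replicate 6 (-2.11). Tll1 lost its call without wild type replicate 1 (-0.69), 2 (-0.67) or 3 (-0.66) and without mutant replicate 5 (-0.67) or 6 (-0.70).

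**Figure D4:**
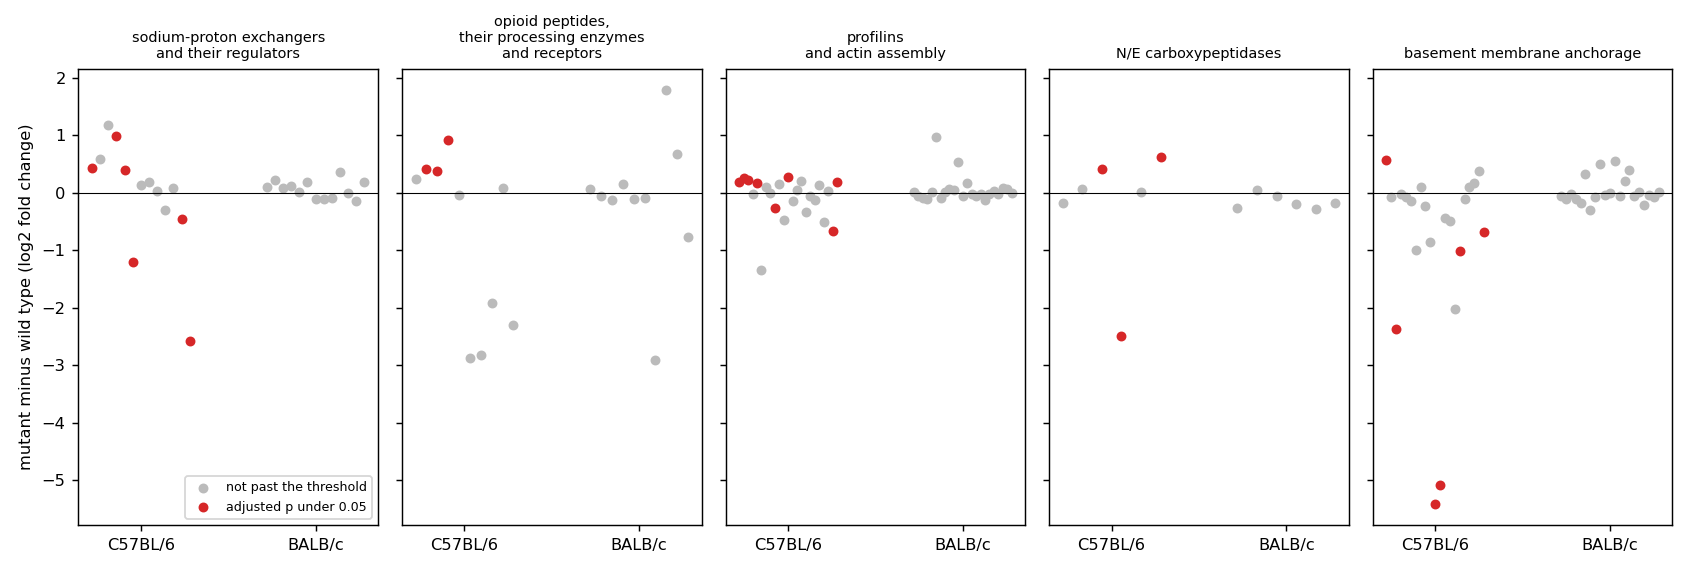
Mutant minus wild type (log2 fold change) of each tested gene in the 5 lists, C57BL/6 on the left and BALB/c on the right of each panel, with genes past an adjusted p under 0.05 in red. Red points appear in C57BL/6 in both directions, 14 higher and 11 lower with Cpe counted once, and none appear in BALB/c.

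Markers of other cell types moved with genotype in C57BL/6. Summed levels of 10 of 14 marker lists did not overlap between C57BL/6 wild type and mutant samples. Of all 16190 genes tested, 6734 had ranges apart between genotypes in C57BL/6 and 3231 in BALB/c. Separate ranges were thus common in the table at large, most of all in C57BL/6. A list sum is not a single gene, so these numbers are only a rough guide to the lists. The 8 osteoblast markers summed to 112662 to 195450 CPM in C57BL/6 wild types and 217533 to 260699 CPM in C57BL/6 mutants, with 6 of 8 called higher, and to 183908 to 209200 CPM in BALB/c, where the genotypes overlapped. In BALB/c 1 list was apart, the erythroid list, and it ran the other way: 186 to 298 CPM in wild type and 374 to 463 CPM in mutants, against 175 to 239 and 46.2 to 73.0 CPM in C57BL/6. The 7 basal epithelium markers, the cells best known for making type VII collagen, summed to 76.0 to 280 CPM in C57BL/6 wild type and 4.07 to 41.9 CPM in C57BL/6 mutants, with 6 of 7 called lower. In BALB/c they summed to 2.96 to 4.36 CPM in wild type and 3.59 to 7.13 CPM in mutants, with overlapping ranges, and Krt14 was at 0 in every BALB/c sample. The 7 suture mesenchyme and fibroblast markers overlapped between genotypes in each strain, at 8755 to 13308 and 10702 to 12504 CPM in C57BL/6 and 14066 to 16209 and 13262 to 15623 CPM in BALB/c wild type and mutants. Of the 7, 3 were called higher and 1 lower in C57BL/6 mutants. The part of the marker lists in the differences of the 5 genes was not tested in either strain.

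**Figure D5:**
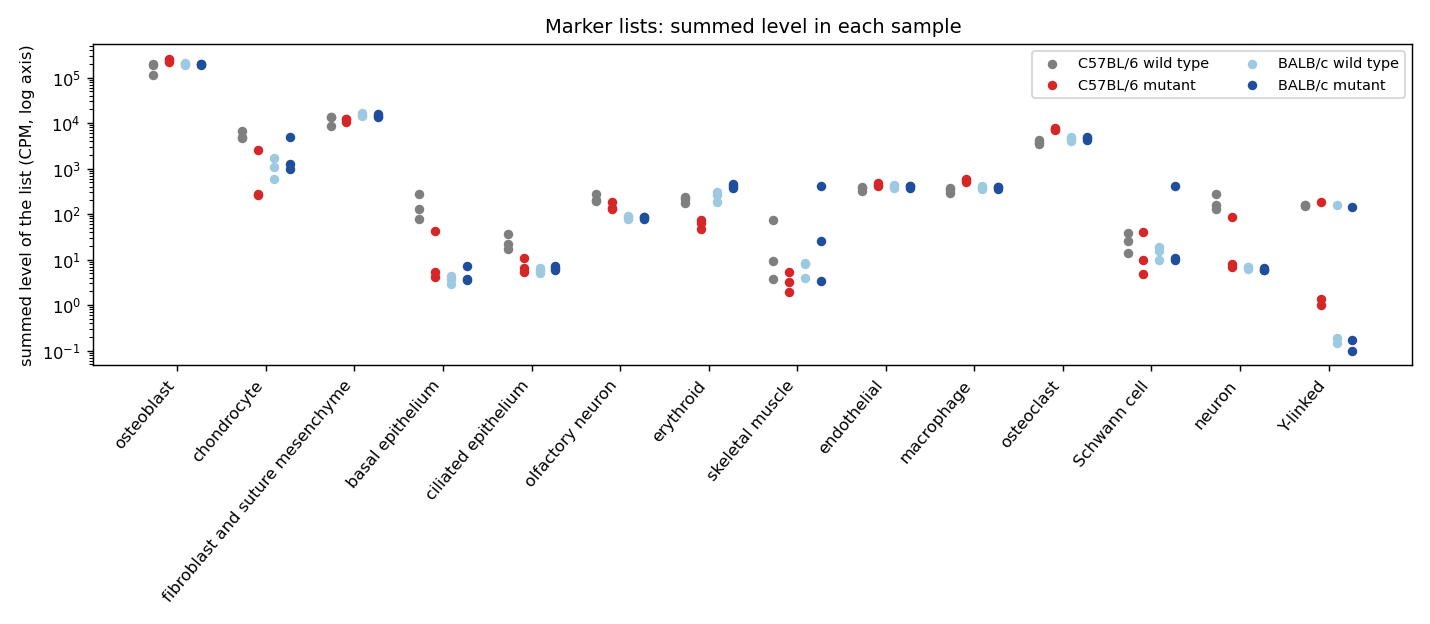
Summed level of each of 14 marker lists in every sample (CPM, log axis), by group. The C57BL/6 groups are apart for 10 lists, while the BALB/c groups are apart for the erythroid list alone, and the basal epithelium list lies at 2.96 to 7.13 CPM in all BALB/c samples.

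Y-linked transcripts were not balanced between the groups. The 4 Y-linked genes summed to 152 to 161 CPM in all 3 C57BL/6 wild type samples and were at such a level in 1 sample of each other group. With the log2 sum as a covariate, the C57BL/6 differences were 0.86 for Slc9a2, -1.24 for Penk, -0.47 for Pfn2, -0.51 for Cpxm2 and -0.85 for Col7a1. In BALB/c they were 0.91, -0.83, -0.46, -0.76 and -1.05 in the same order. Without the C57BL/6 mutant replicate 4, which stood apart in its markers, the C57BL/6 differences were 0.97, -1.34, -0.43, -0.51 and -0.85. C57BL/6 wild type replicate 1 also stood apart, with osteoblast markers at 112662 CPM beside 190500 and 195450 CPM in replicates 2 and 3. Without this replicate the C57BL/6 differences were 0.80, -1.32, -0.38, -0.53 and -0.65 in the same order. BALB/c mutant replicate 16 stood apart in skeletal muscle markers, at 420 CPM beside 26.1 and 3.44 CPM in replicates 17 and 18, and in Schwann cell markers, at 405 CPM beside 9.90 and 10.97 CPM. Without it the BALB/c differences were 0.97, -0.89, -0.46, -0.69 and -0.97. Leaving out 1 of 3 replicates moves a group mean by less than their spread almost by design, so no steadiness is read from these values.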

How the data were processed

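The authors deposited a raw count for each gene in each of 12 samples, with an RPKM value per gene that divides by gene length, per the file headers. Per the submitters' processing notes, the tools were bcl2fastq, TopHat2 2.0.6, HTSeq and DESeq2 with mm10, while strand setting and annotation release are not given in the sources used here. All deposited counts are even. The authors also deposited their own log2 fold change, p-value and q-value per gene for 4 group comparisons, which were only quoted. Of the count and RPKM columns, 0 belonged to no sample.

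Counts were fitted with edgeR 4.0.16 in R 4.3.3 (filterByExpr, minimum count 10 and minimum total count 15, TMM, quasi-likelihood, 4 group means over 12 samples), with Benjamini-Hochberg adjustment and calls at an adjusted p under 0.05. Log2 CPM used a prior count of 2. The alternatives were DESeq2 1.42.0, limma-voom (limma 3.58.1), other scalings, no filter, a Y-linked covariate, 6-sample fits and leaving out each sample. The 5 genes and all lists were chosen with earlier results of these data known. In each list up to 4 called genes with the smallest adjusted p were named, with the closest relatives of the 5 genes and the 3 genes most alike. Some genes that this rule names are not reported here. No protein sequences were used here.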

Additional observations from a re-analysis of the deposited data

Results flagged for a closer look

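Genes of the 5 pathway and family lists were flagged where the mutant minus wild type difference itself differed between the strains at an adjusted p under 0.05 (edgeR, interaction term, Benjamini-Hochberg over all genes), which 1626 of 16190 genes did. The BALB/c difference minus the C57BL/6 difference was -0.86 for Slc9b2 (adjusted p 0.0214), -0.75 for Mme (0.0124), -0.50 for Ctsl (0.0162) and -0.45 for Cpe (0.0417). It was 0.32 for Diaph1 (0.0384), -0.32 for Arpc2 (0.0486), -0.80 for Cpz (0.0488) and -0.62 for Bmp1 (0.0129). It was 1.003 for Diaph3 (Diap3 in the table, 0.0244), 0.47 for Dst (0.0244) and 0.74 for Itga6 (0.0333), which the naming rule did not pick and which are named here for this flag. Of these 11 genes 7 had a negative and 4 a positive value. The mutant minus wild type values behind the last 3 were -0.48 in C57BL/6 and 0.52 in BALB/c for Diaph3, -0.15 and 0.32 for Dst, and -0.23 and 0.51 for Itga6, none past the threshold in either strain by edgeR. For the 5 genes chosen for moving alike in both strains this difference was not tested. Over all genes its sign leaned on the scaling. With total counts in place of TMM its median moved by 0.23. The share of positive values among the calls was 54.4% with TMM and 90.5% with total counts.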

How the results depend on the processing

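No paired analysis was possible because the groups share no replicate numbers. There were 19 settings, and 18 for the averaged strain difference, which the 6-sample fits cannot give. The averaged strain difference of each of the 5 genes kept its side of the threshold. Of 190 genotype values of these genes, 0 reversed. These values chose the genes and their ranges were apart within each strain, so no steadiness is read from that count. Scaling to total counts moved the median of all C57BL/6 genotype differences by -0.20, and the values became -1.46 for Penk, -0.67 for Pfn2, -0.70 for Cpxm2 and -0.98 for Col7a1, while that of Slc9a2 went from 0.91 to 0.72. The share of higher genes among the C57BL/6 calls was 47.5% with TMM and 13.2% with total counts. The number of genes called in C57BL/6, 3867, became 1458 with the 6-sample fit and ran from 1724 to 4833 in leave-one-out fits. In BALB/c the 22 genes became 4 with total counts, 4 with the Y-linked covariate, 71 with the 6-sample fit, 44 with limma-voom and 318 with DESeq2, and ran from 0 to 95 in leave-one-out fits. The cause was not tested. Leaving out C57BL/6 wild type replicate 1 gave 59, C57BL/6 mutant replicate 5 gave 4, BALB/c wild type replicate 14 gave 95, BALB/c mutant replicate 16 gave 6, and BALB/c mutant replicates 17 and 18 gave 2 each. Of the pathway list genes, the 25 called in C57BL/6 became 8 with the 6-sample fit and ran from 11 to 28 in leave-one-out fits, and the 0 called in BALB/c became 3 with DESeq2 and ran from 0 to 1 in leave-one-out fits. Of the values of single named list genes, 819 kept their side of the threshold, 42 fell below it and 11 passed it.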
